A study of Rattus norvegicus with 11 samples.

Results

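B2m, Cd74 and RT1-Da are 3 genes of antigen presentation, and they were followed across the retinas of 11 female rats by RNA sequencing. They were chosen by their Ensembl identifiers, ENSRNOG00000017123 for B2m, ENSRNOG00000018735 for Cd74 and ENSRNOG00000032844 for RT1-Da. All 3 were present among the 12037 genes of the gene table, and all 3 passed the filter on low counts. The P23H rats were hemizygous animals of transgenic line 1, which carries a mutant rhodopsin transgene, bred to wild-type Long Evans rats, and their strain is given as P23HxLE. Of these, 4 had received halofantrine, an antimalarial drug, and 5 had received its solvent DMSO, in each case by injection into the vitreous of both eyes. The 2 wild-type rats were of the strain SDxLE and were untreated, so genotype, strain cross and injection cannot be told apart in any comparison with them. An injection was 5 µL per eye, at a concentration stated as a range of 20 to 100 µM. The authors describe repeated injections in their functional study of female P23H rats. How many injections the sequenced rats received, and the age at which their retinas were collected, was not given in the sources used here. The library names end in R for all P23H and in L for both wild-type rats, and what these letters mark is not stated. The animal numbers in the names are higher in both wild-type rats than in any P23H rat. A cohort following the numbers thus cannot be told apart from genotype either.

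B2m encodes beta-2 microglobulin, the light chain that every classical MHC class I molecule needs to reach the cell surface, and most nucleated cells express it. RT1-Da encodes the alpha chain of an MHC class II molecule in the rat, and Cd74 encodes the invariant chain, which fills the class II peptide groove during assembly and guides the molecule to the endosome. Class II genes are normally restricted to professional antigen-presenting cells, and in the retina microglia are the resident cells best known to switch them on. MHC class I and class II promoters are known to share a module of short elements, named the X2 box and the Y box among others, and interferon raises the transcription of both classes.

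The promoters of the 3 genes are shown because they hold matches to the core letters of these elements in different numbers. Exact letters alone were searched, so variant forms of the elements and other parts of the module were not looked at. Each is the stretch of 250 bases before the start site in RefSeq (GRCr8, plus strand), chr3:129549080-129549329 for B2m, chr18:56526956-56527205 for Cd74 and chr20:4515165-4515414 for RT1-Da. Capitals mark matches, on either strand, to CCAAT (Y box core), TGACG (X2 box core) and the interferon-stimulated response element (GAAA, any 2 bases, GAAA).
B2m: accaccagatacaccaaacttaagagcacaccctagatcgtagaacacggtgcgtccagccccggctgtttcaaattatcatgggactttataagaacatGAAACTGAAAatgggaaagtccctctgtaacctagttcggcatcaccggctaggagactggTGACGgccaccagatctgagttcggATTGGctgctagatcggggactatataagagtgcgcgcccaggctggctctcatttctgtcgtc
Cd74: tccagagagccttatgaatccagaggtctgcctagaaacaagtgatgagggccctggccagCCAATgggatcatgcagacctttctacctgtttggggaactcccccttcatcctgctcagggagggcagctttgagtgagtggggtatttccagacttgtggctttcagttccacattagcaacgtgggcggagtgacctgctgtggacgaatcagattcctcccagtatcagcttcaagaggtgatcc
RT1-Da: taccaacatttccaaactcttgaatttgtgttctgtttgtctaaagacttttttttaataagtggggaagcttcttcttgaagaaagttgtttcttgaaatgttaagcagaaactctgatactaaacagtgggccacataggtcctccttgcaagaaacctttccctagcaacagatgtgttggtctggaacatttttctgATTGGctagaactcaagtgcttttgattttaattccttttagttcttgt

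All 3 promoters held CCAAT, which occurred in 34% of 33469 rat promoters of this length. In B2m it lay on the minus strand at positions -64 to -60 from the start site, and in RT1-Da on the minus strand at -49 to -45. In Cd74 it lay farther off, on the plus strand at -189 to -185. The B2m promoter also held TGACG at -89 to -85, present in 18.2% of promoters, and the interferon-stimulated response element at -150 to -141, present in 3.41%. Neither motif was found in the windows of Cd74 or RT1-Da. The letters TTCNNNGAA (a STAT site, in 7.67% of promoters) were found in none of the 3.

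Library totals lay between 11685202 and 34198536 estimated counts. Levels are given as counts-per-million (CPM) scaled by TMM factors. P23H DMSO replicate 3 stood apart from the series across all genes. Its highest Pearson's r with any other library was 0.844, and 230 transcripts were found in it alone (above 5 CPM in it and below 0.5 CPM in every other library). P23H halofantrine replicate 1 had a highest r of 0.942 and 131 such transcripts, while the other 9 libraries reached at least 0.981 and had at most 7. Values are therefore given with and without P23H DMSO replicate 3. In bulk retina, more cells of a type and more RNA per cell cannot be told apart.

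B2m was low in wild type, at 59.9 and 71.7 CPM. In the DMSO group it was at 229, 241, 1827, 221 and 199 CPM in replicates 1 to 5, and in the halofantrine group at 436, 192, 311 and 275 CPM in replicates 1 to 4. All 9 P23H libraries thus lay above both wild-type libraries, and a single DMSO library lay far above the rest. Of all genes, 27.1% had DMSO libraries wholly above wild type and 26% had halofantrine libraries wholly above it. The share for all P23H libraries together was not computed.

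Cd74 was near the detection limit in wild type, with 7 and 16.1 estimated counts, or 0.413 and 1.32 CPM. In DMSO replicates 1 to 5 it was at 21.8, 16.2, 2249, 30.9 and 28.2 CPM. The halofantrine libraries were close to each other, at 42.7, 30.1, 30.8 and 32.0 CPM. The P23H and wild-type libraries did not overlap, as in 27.1% of all genes for DMSO and 26% for halofantrine in this direction. The same DMSO library was again the highest.

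RT1-Da had 0 counts in wild-type replicate 1, where a count of 0 allows up to 0.177 CPM, and 2 counts in wild-type replicate 2, or 0.165 CPM. In DMSO replicates 1 to 5 it was at 4.93, 3.30, 688, 5.50 and 4.78 CPM. The halofantrine libraries lay at 14.2, 7.52, 9.25 and 7.51 CPM. Apart from DMSO replicate 3, each halofantrine library was above each DMSO library, as in 3.57% of all genes. Every P23H library was above wild type, which held for 27.1% of all genes with DMSO and 26% with halofantrine.

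**Figure D1:**
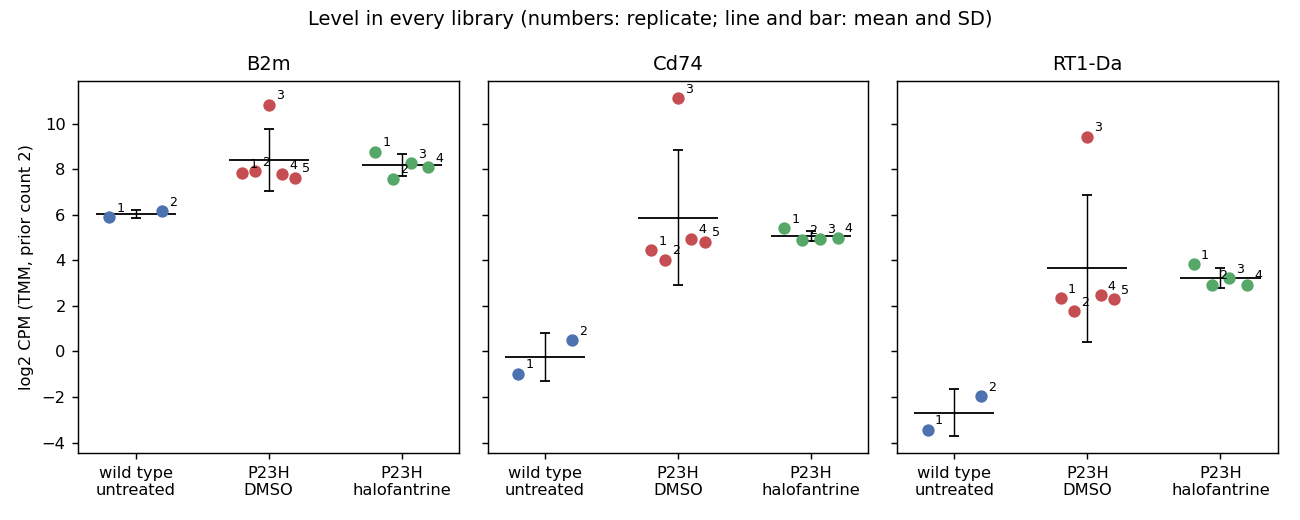
Level of B2m, Cd74 and RT1-Da in each of the 11 libraries, as log2 CPM (TMM factors, prior count 2). Points are libraries numbered by replicate, and the line and bar are the mean and SD of the group. P23H DMSO replicate 3 is the highest library for all 3 genes, and both wild-type libraries are the lowest.

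The mutant retina was compared with wild type first. With all libraries in the fit, none of the 3 genes passed an adjusted p of 0.05 between P23H DMSO and wild type (edgeR quasi-likelihood test, Benjamini-Hochberg over 12031 genes), a threshold that 21.2% of all genes passed. Mean B2m was 543 ± 718 CPM in DMSO (SD, n = 5) against 65.8 ± 8.33 CPM in wild type (SD, n = 2), and the SD of the DMSO group exceeded its mean. On the log2 scale the difference was 3.05 for B2m, 9.15 for Cd74 and 10.87 for RT1-Da, with standard errors of 1.00, 2.99 and 3.98. The adjusted p from edgeR was 0.0528 for B2m, 0.0510 for Cd74 and 0.0736 for RT1-Da. The groups did not overlap for any of the 3 genes, which was also true of 27.1% of all genes in this direction.

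Without P23H DMSO replicate 3, all 3 genes were higher in P23H DMSO than in wild type past the adjusted threshold, as were 14.4% of 12030 genes (30.3% passed in either direction). B2m was at 222 ± 17.4 CPM in the remaining DMSO libraries (SD, n = 4), and the fitted fold over wild type was 3.22, a log2 difference of 1.68 ± 0.27 (SE; edgeR, adjusted p 0.00102). Wild type averaged 0.868 ± 0.644 CPM for Cd74 (SD, n = 2), while the DMSO libraries averaged 24.3 ± 6.60 CPM (SD, n = 4), and the log2 difference was 4.82 ± 0.43 (SE; edgeR, adjusted p 2.48e-05). Mean RT1-Da was 4.63 ± 0.934 CPM in DMSO (SD, n = 4), and its log2 difference was 5.87 ± 0.69 (SE; edgeR, adjusted p 0.000151). The median of the 3 log2 fold changes was 4.82, where the median of all genes tested was -0.04. Ranked by log2 fold change among these genes, RT1-Da was at position 7, Cd74 at 13 and B2m at 268.

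The class II genes had few wild-type counts, which limits the size that can be given to their difference. Summed over libraries, the 4 DMSO libraries held 2545 Cd74 counts and wild type 23, a ratio of 32.4 at equal depth with a 95% interval of 21.5 to 51.2 (exact, from counting error alone). For RT1-Da the sums were 468 and 2 counts, a ratio of 68.5 with an interval of 18.8 to 567. For B2m, with 21790 and 1881 counts, the ratio was 3.39 with an interval of 3.23 to 3.55. These 3 intervals leave out the spread between animals. The 95% intervals of the edgeR fold, which take it in, were 2.13 to 4.85 for B2m, 14.7 to 54.6 for Cd74 and 20.5 to 168 for RT1-Da. RT1-Da belongs to a gene family whose alleles differ between rat strains, and reads were assigned to a single reference transcriptome, so the part of allele differences between P23HxLE and SDxLE in its value was not tested.

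Halofantrine-treated P23H retinas were also above wild type. With all libraries in the fit, the log2 fold changes were 2.21 for B2m (SE 0.97), 5.36 for Cd74 (SE 2.66) and 7.01 for RT1-Da (SE 4.11), with adjusted p of 0.148, 0.192 and 0.261 in that order by edgeR's quasi-likelihood test, where 13.1% of all genes passed. P23H DMSO replicate 3 is in neither of these groups and entered through the shared estimate of spread and the scaling. Without it the log2 fold changes were almost the same, at 2.16 (SE 0.28), 5.32 (SE 0.43) and 6.95 (SE 0.67). All 3 genes then passed as higher than wild type, with adjusted p of 0.000287, 1.4e-05 and 4.16e-05 by edgeR. In this direction 14% of all genes passed (29.8% in either direction). All 4 halofantrine libraries were above both wild-type libraries for each gene, which held for 26% of all genes. Without P23H halofantrine replicate 1 as well, all 3 genes passed as higher in both comparisons with wild type. In this direction 22% of all genes passed with DMSO and 22.3% with halofantrine (44.8% and 45.5% in either direction). DESeq2 without P23H DMSO replicate 3, an alternative chosen after seeing the data, also called all 3 as higher in both. It called 18.4% and 17.5% of all genes as higher (35.3% and 34.8% in either direction). The comparisons of DMSO and of halofantrine with wild type share the same 2 wild-type libraries.

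**Figure D2:**
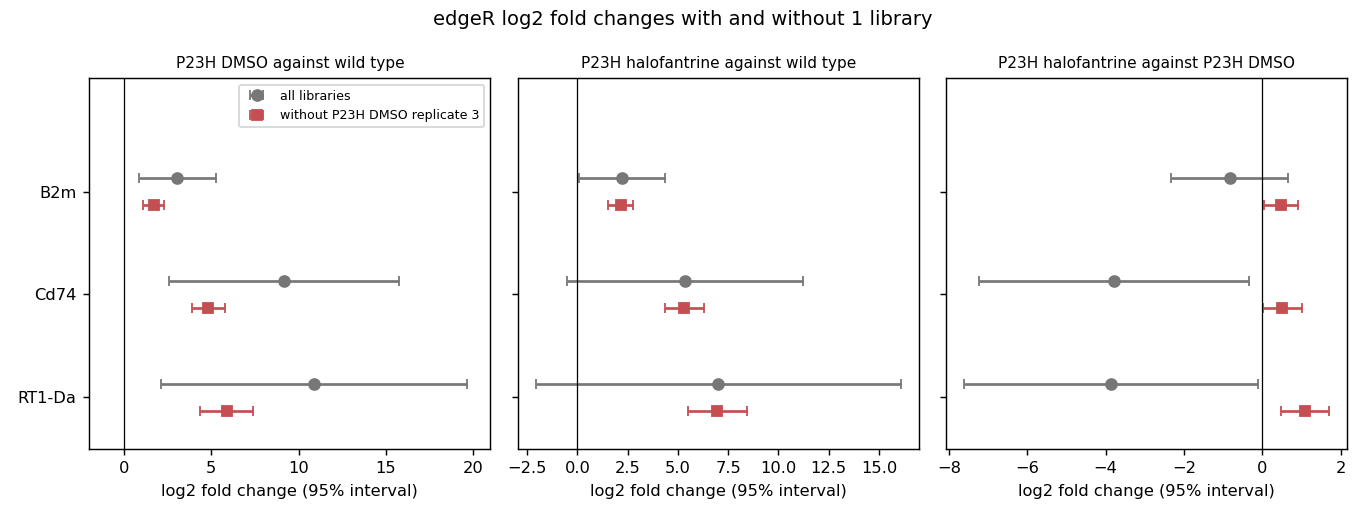
Log2 fold changes of the 3 genes in each comparison (edgeR quasi-likelihood fit), with 95% intervals, for all 11 libraries (grey circles) and without P23H DMSO replicate 3 (red squares). Each panel has its own horizontal scale. Leaving out the library narrows each interval, and in the comparison of halofantrine with DMSO it turns the sign of all 3 values.

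The effect of halofantrine in the mutant retina was then tested against DMSO. None of the 3 genes passed the adjusted threshold, with or without P23H DMSO replicate 3, and only 0.00831% of all genes (1 gene) passed in either fit. With all libraries, halofantrine was below DMSO by a log2 fold change of -0.84 for B2m (SE 0.68), -3.79 for Cd74 (SE 1.57) and -3.87 for RT1-Da (SE 1.70), and the unadjusted p was 0.243, 0.0343 and 0.0439 (edgeR quasi-likelihood test, adjusted p 0.654, 0.445 and 0.457). These negative values rested on the 1 DMSO library. An exact two-sided permutation of mean log2 CPM over the P23H libraries gave p of 0.952 for B2m, 0.984 for Cd74 and 1 for RT1-Da. The same library was kept in it and largely sets the difference under every relabelling. These p-values therefore cannot show that a difference between the treatments is absent.

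Without P23H DMSO replicate 3 the sign turned for each gene. The mean of B2m was 304 ± 102 CPM with halofantrine (SD, n = 4) and 222 ± 17.4 CPM with DMSO (SD, n = 4), a ratio of 1.39 in the fit, or 0.47 ± 0.20 in log2 (SE; edgeR, adjusted p 0.311). The mean of Cd74 was 33.9 ± 5.90 CPM with halofantrine (SD, n = 4) and 24.3 ± 6.60 CPM with DMSO (SD, n = 4), a ratio of 1.42 in the fit, or 0.50 ± 0.23 in log2 (SE; edgeR, adjusted p 0.336). The halofantrine and DMSO libraries overlapped for both genes, and neither difference passed the adjusted threshold. The 95% intervals of the fold ran from 1.02 to 1.88 for B2m and from 1.00 to 2.00 for Cd74.

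RT1-Da differed most between the treatment groups. Its mean was 9.62 ± 3.17 CPM with halofantrine (SD, n = 4) and 4.63 ± 0.934 CPM with DMSO without replicate 3 (SD, n = 4), a fitted fold of 2.11 with a log2 fold change of 1.08 (SE 0.28, 95% interval of the fold 1.38 to 3.24). The lowest halofantrine library was at 7.51 CPM and the highest DMSO library at 5.50 CPM, and 3.57% of all genes had halofantrine libraries wholly above DMSO in the same way. The unadjusted p was 0.0026 by edgeR, and the adjusted p of 0.178 did not pass. DESeq2 on the same libraries, an alternative chosen after seeing the data, gave an adjusted p of 0.0114 at a log2 fold change of 1.07. It called 2.93% of genes, against the 1 gene that edgeR called. Without P23H halofantrine replicate 1 as well, the log2 difference was 0.82 ± 0.23 (SE; edgeR, adjusted p 0.186), and 0.0166% of all genes passed. The animal numbers in the library names are all lower with halofantrine than with DMSO, so that a cohort following the numbers and the treatment cannot be told apart.

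P23H DMSO replicate 3 was then set beside the other 4 DMSO libraries. RT1-Da was 142-fold above their median of 4.86 CPM, Cd74 was 89.9-fold above 25.0 CPM, and B2m was 8.13-fold above 225 CPM. Of 12031 genes ordered by this ratio, RT1-Da was at position 10, Cd74 at 16 and B2m at 218, and 9.86% of all genes were over 2-fold above the median, with a median ratio of 0.966. P23H halofantrine replicate 1 was the highest halofantrine library for all 3 genes by far smaller ratios, at 1.89 for RT1-Da, 1.59 for B2m and 1.39 for Cd74 over the median of the other 3, while 3.08% of all genes were over 2-fold above theirs. Markers of cell types are known by symbol and could not be matched to the identifiers of the files, so the part of other cells in these levels was not tested.

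**Figure D3:**
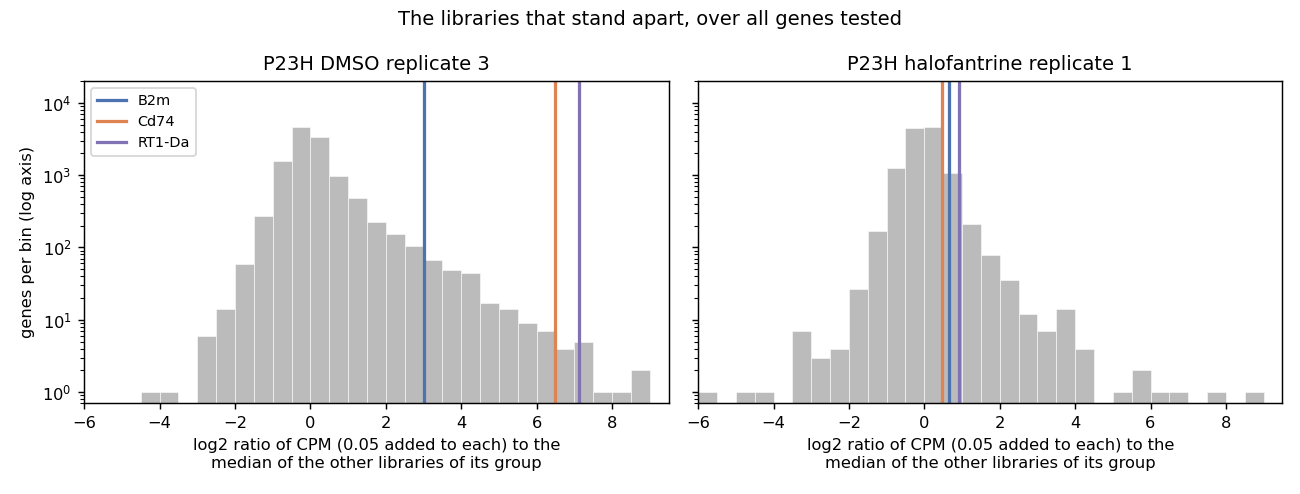
Log2 ratio of CPM in P23H DMSO replicate 3 (left) and P23H halofantrine replicate 1 (right) to the median of the other libraries of the same group, with 0.05 CPM added to each value. Grey bars count genes per bin of 0.5 (log axis), and vertical lines mark the 3 genes. The class II genes lie in the far right tail on the left side (142-fold for RT1-Da and 89.9-fold for Cd74). On the right side RT1-Da is at 1.89-fold (position 439 of 12031 genes) and Cd74 at 1.39-fold (position 1591).

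Cd74 varied among libraries by larger factors than B2m, which is shown by ratios of counts within a library, since these do not depend on scaling. In the P23H libraries other than DMSO replicate 3 there were between 6.37 and 14.9 B2m counts per Cd74 count. In DMSO replicate 3 there was 0.812, and in wild type there were 145 and 53.7. Cd74 and RT1-Da kept nearer to each other. DMSO replicate 3 held 3.27 Cd74 counts per RT1-Da count, inside the range of 3.00 to 5.90 in the other P23H libraries, although Cd74 was 72.9-fold and RT1-Da 125-fold above the highest of the other DMSO libraries. This ratio was 3.00, 4.01, 3.33 and 4.27 with halofantrine and 4.42, 4.89, 5.62 and 5.90 in the other DMSO libraries. These did not overlap, but DMSO replicate 3 at 3.27 lay inside the halofantrine range. The ratio restates in part the levels of RT1-Da given above, and the share of gene pairs that separate in this way was not computed. It was looked at after the values were known and was not tested.

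**Figure D4:**
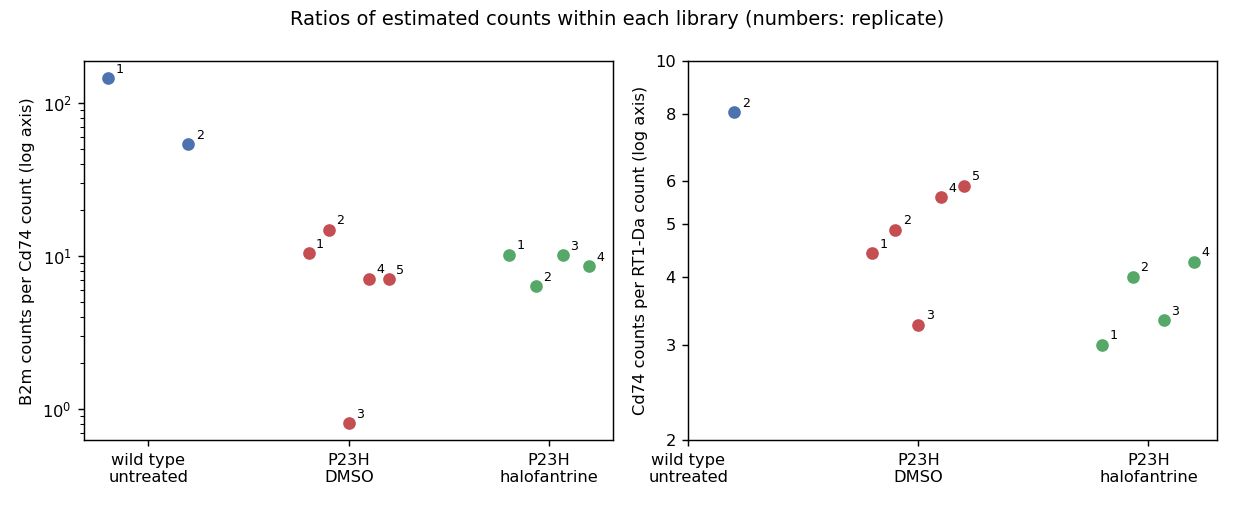
Ratio of B2m to Cd74 counts (left) and of Cd74 to RT1-Da counts (right) within each library, on log axes, with replicate numbers. P23H DMSO replicate 3 lies alone at 0.812 on the left and within the P23H range at 3.27 on the right. Wild-type replicate 1 has no point on the right because it held 0 RT1-Da counts.

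Across the 9 P23H libraries the 3 genes were correlated in log2 CPM, and 3 pairs were tested by exact permutation. Pearson's r was 0.992 for Cd74 and RT1-Da (exact permutation p 0.000121, adjusted 0.000364), with a Spearman's rho of 0.85 (exact permutation p 0.00607, adjusted 0.0182). For B2m it was 0.951 with Cd74 (exact permutation p 0.00869, adjusted 0.00869) and 0.97 with RT1-Da (exact permutation p 0.00271, adjusted 0.00406), and rho was 0.633 for both (exact permutation p 0.076, adjusted 0.076). Without the 2 libraries farthest from the median, which for B2m were the 2 that stand apart, r fell to 0.075 with Cd74 and to 0.404 with RT1-Da (exact permutation p 0.895 and 0.379), so both relations with B2m rested on those libraries. The relation of Cd74 and RT1-Da was kept at r = 0.84 without DMSO replicates 2 and 3 (exact permutation p 0.0159, adjusted 0.0476) and at 0.83 without the 2 that stand apart (exact permutation p 0.00873, adjusted 0.0262). Its rho was 0.679 in both cases (exact permutation p 0.11, adjusted 0.329). With the mean of each treatment group taken out, r over the 9 libraries was 0.997 for Cd74 and RT1-Da, 0.97 for B2m and RT1-Da and 0.954 for B2m and Cd74. DMSO replicate 3 was still among these libraries, and r with group means taken out was not computed without it.

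Over all 11 libraries and 12030 other genes, RT1-Da was the gene with the pattern most like that of Cd74, and the reverse, at r = 0.997. Leaving out both libraries that stand apart, r was 0.995 over 9 libraries and each was again the first of the other. The next gene for RT1-Da was ENSRNOG00000000451 at r = 0.994, with a mean of 0.0709 CPM in wild type, a median of 4.50 CPM in the other DMSO libraries and 479 CPM in DMSO replicate 3. Without both libraries that stand apart it was at position 7 at r = 0.986. The gene most like B2m was ENSRNOG00000042592 at r = 0.995, which was at position 3 without both libraries (r = 0.993), with a mean of 4.69 CPM in wild type, a median of 11.3 CPM in the other DMSO libraries and 42.2 CPM in DMSO replicate 3. These values of r are a description, since the gap between wild type and P23H and the 1 high library are shared by many genes.

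The transcript table showed which transcripts carried these counts. The files do not pair transcripts with genes, so they were matched by their counts, as sets whose sum equals the gene within 0.05 counts in all 11 libraries. RT1-Da equalled the single transcript ENSRNOT00000048332. B2m was the sum of 2 transcripts, of which ENSRNOT00000023017 held between 99.4% and 100% in every library. Cd74 was the sum of 4 transcripts, led by ENSRNOT00000025354 with 55.6% to 72% of counts in the P23H libraries other than DMSO replicate 3 and 76.8% in that library. ENSRNOT00000160649 held 5.27% to 27.8% and ENSRNOT00000169076 held 9.77% to 22.7% in those 8 libraries, against 11.4% and 10.9% in DMSO replicate 3. The fourth, ENSRNOT00000025344, had 437 counts in DMSO replicate 3 and 0 in each of the other libraries. Reads that fit several transcripts were divided among them by the authors' program, so these shares are estimates, and those of wild type rest on 7 and 16.1 counts.

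**Figure D5:**
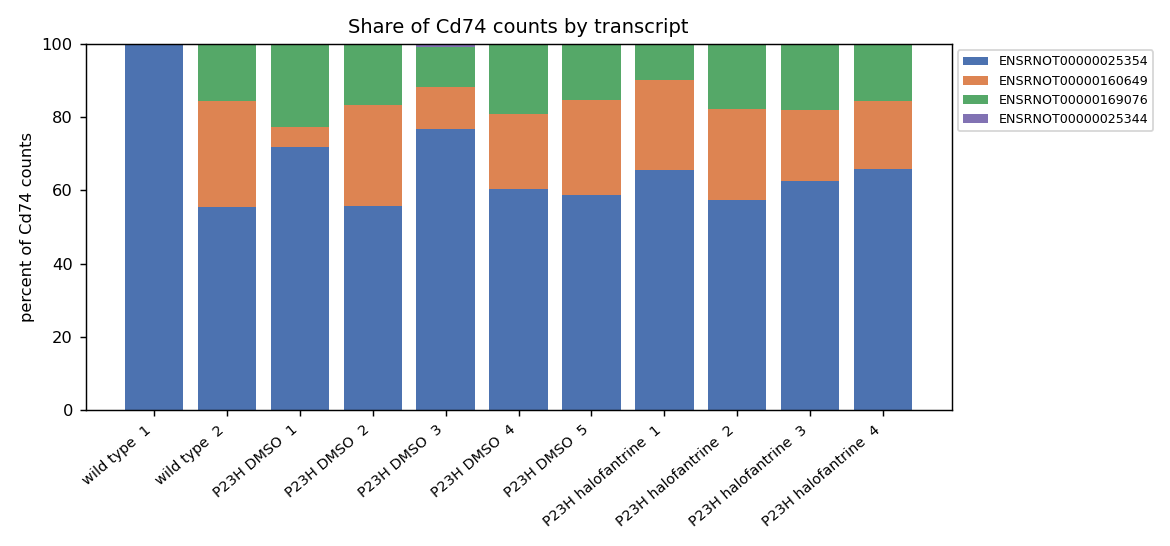
Share of Cd74 estimated counts, in percent, by transcript in each library. ENSRNOT00000025354 holds the largest share in every library, from 55.5% in wild-type replicate 2 to 76.8% in P23H DMSO replicate 3 and all 7 counts of wild-type replicate 1.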

How the data were processed

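RNA of 11 retinas, 1 library per rat, was sequenced as strand-specific polyadenylated RNA. The authors assigned reads to the Ensembl rat transcriptome with kallisto and summed transcripts to genes with tximport, and edgeR and limma are named in the submitters' processing notes. The deposited gene and transcript tables hold estimated counts without scaling for depth. The deposited normalized signal is these counts over a library-wide constant and was used for an alternative scaling alone. The authors' table of halofantrine against DMSO (log2 fold changes, p-values and scores) was not used.

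Counts were rounded, genes were kept by filterByExpr (12031 of 12037), and all 11 libraries entered a single quasi-likelihood fit of edgeR 4.0.16 (R 4.3.3) with TMM factors. P-values were adjusted over all genes tested (Benjamini-Hochberg, threshold 0.05). Alternatives were DESeq2 1.42.0, limma-voom (limma 3.58.1), other scalings, no filter, robust dispersions, P23H libraries alone and libraries left out. The test was tried on simulated counts. Replicates were numbered in order of deposition. Nothing says that rats came from separate litters, so p-values measure the spread between these animals.

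The genes, lists and tests were chosen with earlier results of these data known. The genes named are the 3 members and, for each, the 2 most correlated genes of at least 1 CPM, of which 2 identifiers other than members are printed. Lists of other antigen presentation genes, regulators and cell type markers had been fixed by symbol, but 0 of 47357 entries of the RefSeq gene table carry an Ensembl identifier, so they were not analysed here, nor was the tissue checked against markers. Promoters were taken from RefSeq (GRCr8), which held all 3 members.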

Additional observations from a re-analysis of the deposited data

Results flagged for a closer look

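P23H DMSO replicate 3 lay apart from the other DMSO libraries in all 3 genes. The gap between it and the nearest DMSO library, as a share of the whole range of log2 CPM in the group, was 0.915 for B2m, 0.869 for Cd74 and 0.906 for RT1-Da, each above 0.71, the 95% critical value of Dixon's test for 5 libraries. Of 6 sets of values searched (3 genes in 2 groups), 3 had such a library, where chance gives about 1 in 20 for a set chosen blindly. Each time it was P23H DMSO replicate 3, which was already known to stand apart across all genes. The 3 are therefore not separate results, and chance was not tested. The genes are not independent of each other, and no halofantrine library met the rule.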

How the results depend on the processing

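The 3 genes kept their direction against wild type under every alternative run, but with P23H DMSO replicate 3 in the fit few alternatives put them past the adjusted threshold. For P23H DMSO against wild type, scaling by library totals alone brought B2m (3.12) and Cd74 (9.21) past it. With limma-voom B2m passed it (2.39). That method lowered Cd74 to 6.38 and RT1-Da to 7.20, neither past it (limma-voom, adjusted p 0.770 and 0.744). DESeq2 on all libraries gave no p for the 3 genes. Leaving out single libraries gave log2 fold changes of 1.68 to 3.26 for B2m, 4.82 to 10.13 for Cd74 and 5.87 to 14.65 for RT1-Da, and B2m without DMSO replicate 5 and Cd74 without DMSO replicate 1, 2, 4 or 5 also passed. Without both libraries that stand apart the values were 1.69, 4.84 and 5.88, and by DESeq2 without DMSO replicate 3 (an alternative chosen after seeing the data) 1.71, 4.84 and 6.01, all past the threshold. For halofantrine against wild type they were 1.93, 5.20 and 6.70 without both and 2.17, 5.33 and 7.07 by DESeq2, all past it, with ranges on leaving out single libraries of 1.93 to 2.37, 4.63 to 6.32 and 5.78 to 10.77. With all libraries, limma-voom gave 2.15, 5.57 and 6.99 in that comparison, none past it (limma-voom, adjusted p 0.0814, 0.809 and 0.765).

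For halofantrine against DMSO the sign turned wherever DMSO replicate 3 was left out, to 0.25, 0.37 and 0.82 without both libraries and to 0.46, 0.49 and 1.07 by DESeq2, of which RT1-Da alone passed. Leaving out single libraries gave -1.07 to 0.47 for B2m, -4.12 to 0.50 for Cd74 and -4.21 to 1.08 for RT1-Da. Without a wild-type library, the lone remaining one is assumed to vary like the other groups. The correlation of B2m fell to 0.075 with Cd74 and 0.404 with RT1-Da without the libraries that stand apart, which are also those farthest from the median.

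Over all genes, edgeR called 2548 for DMSO against wild type (1308 higher and 1240 lower, or 1927 and 795 by library totals alone), with 519 to 3646 on leaving out single libraries, 5387 without both and 4236 by DESeq2 without DMSO replicate 3. It called 1580 for halofantrine against wild type (668 higher and 912 lower, or 1198 and 536 by library totals alone), with 211 to 3588 on leaving out single libraries, 2491 by DESeq2, 1024 by limma-voom, 5472 without both and 4180 by DESeq2 without DMSO replicate 3. For halofantrine against DMSO it called 1 (1310 at an unadjusted p under 0.05), with 0 to 2 on leaving out single libraries, 34 by DESeq2, 2 without both, 352 by DESeq2 without DMSO replicate 3, and 0 in P23H libraries alone (981 unadjusted by edgeR). In both comparisons with wild type the lowest count came without wild-type replicate 2 and the highest without DMSO replicate 3. The causes of these changes were not tested. No paired analysis was possible because replicate numbers follow the order of deposition and the labels pair no animals. Depth limits the wild-type levels of Cd74 and RT1-Da, with 23 and 2 counts in all.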
